A study of Mus musculus with 30 samples.

Results

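The Krüppel-like factors (KLF) are transcription factors that share zinc fingers at the carboxy-terminal end of the protein and bind CACCC boxes and related GC-rich DNA. Of the 47643 genes in the expression table, 8 KLF genes were selected by name from the rows of the table: Klf2, Klf3, Klf4, Klf6, Klf7, Klf9, Klf10 and Klf13. Klf2 was named in that choice because it falls in the male Homo group, so the male Homo values of every KLF gene are given here as a description, with no test. All 8 genes passed the filter on low values and were among the 16897 genes tested.

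The 30 RNAseq libraries came from CD11b+ CD45med microglia, sorted by FACS at 3 months of age, and each is labelled with its own mouse number. WT mice were Bin1 wt/flox without Cre (4 female and 5 male libraries), Het mice were Bin1 wt/flox::Cx3Cr1-Cre+ (5 female and 6 male) and Homo mice were Bin1 flox/flox::Cx3Cr1-Cre+ (5 of each sex). All groups therefore carry at least 1 floxed Bin1 allele. Cre is driven from Cx3cr1, a gene of microglia and other myeloid cells, and Cx3cr1 itself was lower in the Cre-positive groups. An effect of Cre itself or of lower Cx3cr1 therefore cannot be told apart from that of losing 1 Bin1 copy. The comparisons ask how the loss of 1 or 2 copies of Bin1, which encodes a membrane-bending endocytic adaptor, relates to KLF transcripts in each sex.

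Levels are in FPKM, which count fragments relative to the length of a transcript and to all fragments mapped in a library. The 9 microglial markers used here, P2ry12 among them, summed to 12773 to 18741 FPKM per library, and relative depth ran from 0.669 to 1.41 of the median library. Bin1 was between 230.3 and 289.5 FPKM in the WT libraries of both sexes and between 39.5 and 55.6 in the Homo libraries. Cx3cr1 averaged 2061 FPKM in WT females and 2043 in WT males, as compared with group means of 917 to 1168 in the Het and Homo groups. In 2 libraries the label and the level of Bin1 did not match: the library labelled Het-F-0206 had 42.7 FPKM, with Cx3cr1 at 13.9 as compared with 1048 to 1243 in the other female Het libraries, and the library labelled Het-M-0199 had 51.8 FPKM. The Het differences of the KLF genes and the counts over the gene lists are also given without these libraries. Mice with low numbers, called early here, made up 3 of 5 male Homo, 2 of 6 male Het and 1 of 4 female WT libraries and none of the male WT.

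The 8 genes fall into the known branches of the family. Klf2 and Klf4 are induced through the kinase ERK5 and MEF2 factors, are best known from endothelium and also restrain inflammatory transcription in myeloid cells. Klf3 recruits the corepressor CtBP, Klf6 and Klf7 are close relatives that act mostly as activators, and Klf9, Klf10 and Klf13 can recruit the Sin3a corepressor. Klf9 is a target of glucocorticoid hormone, Klf10 is an early target of TGF-beta, and Klf13 was described as a factor for Ccl5 in T cells.

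A search of the longest coding sequence of each gene found 3 zinc fingers in every member, spread over 243 bases. The coding sequence of the last finger is shown for 6 members because it displays how the branches differ and how far reads from the members can be told apart. Capitals mark the codons of the paired cysteines and histidines that hold the zinc ion.
Klf2: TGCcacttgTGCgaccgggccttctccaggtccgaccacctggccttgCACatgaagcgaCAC
Klf4: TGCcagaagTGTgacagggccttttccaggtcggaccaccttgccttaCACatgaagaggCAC
Klf6: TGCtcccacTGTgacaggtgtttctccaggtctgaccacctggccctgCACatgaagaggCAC
Klf7: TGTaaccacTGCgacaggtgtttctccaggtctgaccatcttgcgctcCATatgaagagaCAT
Klf9: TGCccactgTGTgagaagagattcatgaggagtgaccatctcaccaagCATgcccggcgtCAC
Klf13: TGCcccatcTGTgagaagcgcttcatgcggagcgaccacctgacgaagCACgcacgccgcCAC
Over the whole 3-finger block the encoded residues were 91.4% identical between Klf2 and Klf4, 95.1% between Klf6 and Klf7 and 81.5% between Klf9 and Klf13. Klf3 shared 81.5% with each of Klf4, Klf6 and Klf7. Pairs of Klf9, Klf10 or Klf13 with one of the other 5 members shared 60.5% to 69.1%, as compared with 71.6% to 81.5% among themselves. At the level of bases, the longest run shared by any pair of member transcripts was 26 (Klf6 and Klf7), and no pair with Klf2 shared more than 20.

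Klf2 lies at chr8:72319033-72321656 on the plus strand (GRCm38, GENCODE M21) and has 3 exons. Its upstream DNA is shown because Klf2 was the only member of the 7 with a RefSeq window (250 bases before the start site, GRCm38.p6) in which the MEF2 motif was found. The motif reads the same on both strands and was present in 2.92% of the 32851 windows of this length. The stretch below is chr8:72318894-72318993, plus strand, with the match in capitals, starting 118 bases before the RefSeq start site.
Klf2 upstream: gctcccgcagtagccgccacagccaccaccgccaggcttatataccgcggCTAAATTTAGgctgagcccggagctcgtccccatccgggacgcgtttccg
The family's own CACCC box, counted on both strands, was found 5 times in the window of Klf3, 3 times in that of Klf7, once each in those of Klf2, Klf9 and Klf13 and not in those of Klf4 and Klf6. It was present in 52% of all windows. These matches describe the DNA and say nothing of binding in these cells.

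The range of levels from the highest member to the lowest was far wider than the difference of any member between genotypes. Per length, Klf3 was the most abundant, with a mean of 97.9 FPKM over the 30 libraries, which was above 95.5% of the genes tested. Klf6 followed at 41.2 FPKM, then Klf7 at 13.3 and Klf13 at 12.2, which overlapped across libraries. Klf10 averaged 5.36 FPKM and Klf2 averaged 2.04 FPKM. Klf9 and Klf4 were the lowest, at 0.391 and 0.254 FPKM, and their ranges overlapped as well. The spread of the values rose as the level fell: the SD between libraries of 1 group, on the log2 scale, was 0.09 for Klf3, 0.14 for Klf6, 0.20 for Klf7, 0.32 for Klf13, 0.33 for Klf10, 0.57 for Klf2, 0.63 for Klf9 and 0.71 for Klf4. A change of a given size was therefore easiest to see in Klf3 and hardest in Klf4.

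Of the 9 other KLF genes, Klf12 was the highest at 8.85 FPKM and Klf16 came next at 2.56, 4 had means below the lowest tested and 2 of those were listed at 0 in every library. Groups were compared with limma on log2(scaled FPKM + 0.1), and differences below are log2 fold changes on that scale. Overlaps between groups and exact permutation tests use FPKM before scaling. A gene was called a DEG at a Benjamini-Hochberg adjusted p below 0.05 over all genes tested and a fold change above 1.5. In male Het against WT, Klf16 differed by -0.63 (SE 0.21, limma adjusted p = 0.203) and Klf12 by 0.25 (SE 0.14, limma adjusted p = 0.385). Among the 9 SP factors, which bind GC boxes with the same kind of fingers, Sp3 averaged 33.7 FPKM and Sp2 11.8 FPKM, with male Het differences of 0.0066 (SE 0.07, limma adjusted p = 0.978) and -0.08 (SE 0.14, limma adjusted p = 0.793). Of the 5 other KLF genes and 5 SP genes that could be tested, limma called 0 in the 3 tested contrasts with WT, and 1 of each, Klf16 and Sp1, had an unadjusted p below 0.05, both in male Het. Klf3 and Klf6 thus stood above every other KLF and SP gene in these microglia.

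**Figure D1:**
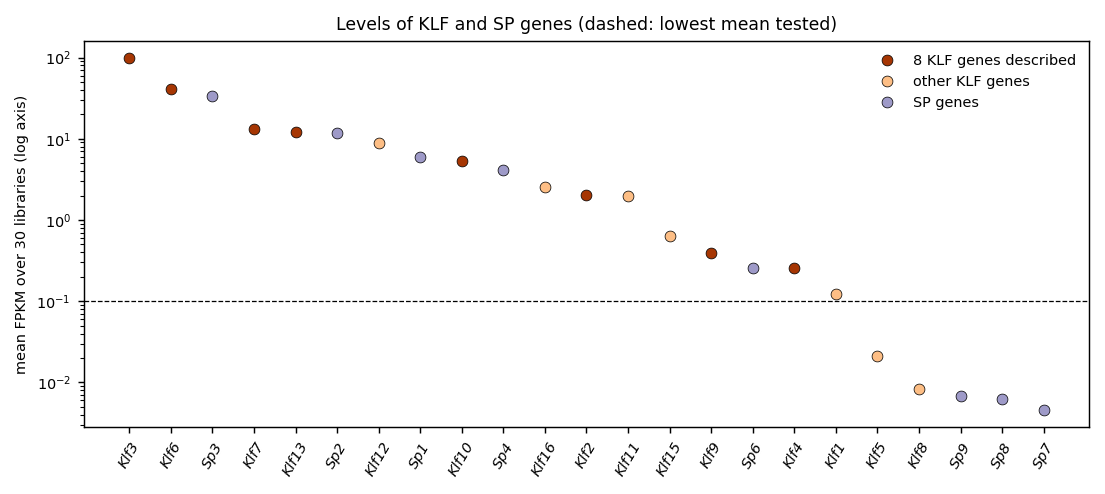
Mean FPKM over 30 libraries (log axis) for the 8 KLF genes described, other KLF genes and SP genes, in falling order; genes listed at 0 in all libraries are not drawn and the dashed line is the lowest mean tested, 0.1 FPKM. Klf3 and Klf6 were at the top at 97.9 and 41.2 FPKM, and Klf4 was the lowest of the 8 at 0.254.

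Klf2, which encodes a factor that keeps endothelium and leukocytes quiescent, was highest in WT males. The 5 male WT libraries had 3.57, 2.54, 3.34, 2.69 and 3.34 FPKM. The 6 male Het libraries ran from 1.23 through a median of 1.61 to 2.18 FPKM. The male Homo libraries had 0.326, 1.77, 0.712, 1.58 and 0.968 FPKM. Every Cre-positive male was thus below every WT male, while Het and Homo males overlapped each other. Of all genes tested, 0.326% had every Het male below every WT male, and 1.37% had every Homo male below every WT male. As group means Klf2 was 3.10 ± 0.45 FPKM (SD, n = 5) in WT males, 1.66 ± 0.38 (n = 6) in Het males and 1.07 ± 0.60 (n = 5) in Homo males.

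In females no such step was seen. The female WT libraries had 1.47, 2.45, 2.98 and 2.31 FPKM of Klf2. Female Het libraries had 1.53, 2.98, 2.45, 1.09 and 4.24 FPKM, and female Homo libraries had 1.21, 1.498, 1.21, 2.43 and 2.55 FPKM. All 3 female groups overlapped, and their means were 2.30 ± 0.63 (SD, n = 4), 2.46 ± 1.24 (n = 5) and 1.78 ± 0.66 FPKM (n = 5). Ordered by mean, the 6 groups ran from WT males through Het females, WT females, Homo females and Het males to Homo males, and each group overlapped its neighbour in that order.

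**Figure D2:**
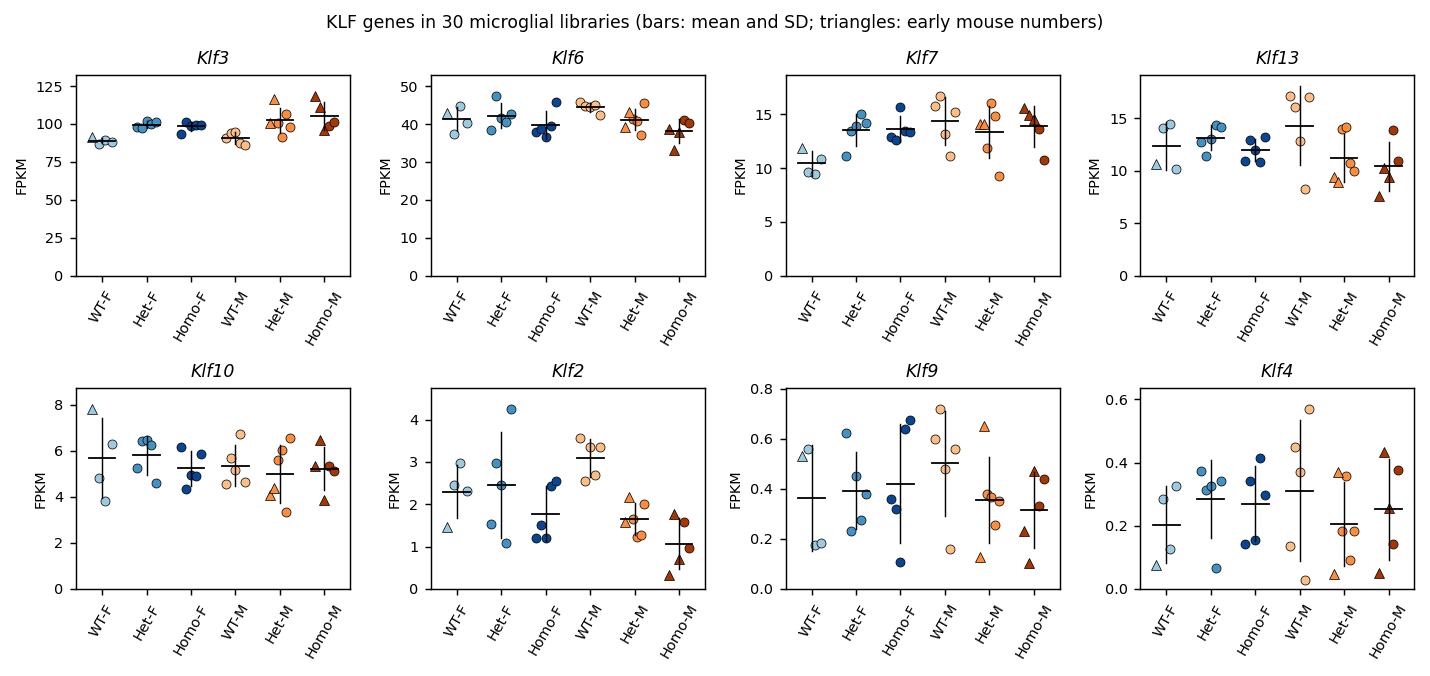
FPKM (linear axes from 0) of the 8 KLF genes in each of the 30 libraries by group, with the mean and SD as bars and early mouse numbers as triangles. For Klf2, the Het and Homo males (0.326 to 2.18 FPKM) lie below all WT males (2.54 to 3.57), whereas the female groups overlap; for Klf3, WT females (86.9 to 91.2) lie below the Het and Homo females.

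In male Het against WT, Klf2 differed by a log2 fold change of -0.95 (SE 0.33, limma adjusted p = 0.235, exact permutation p = 0.00433 on FPKM, two-sided and unadjusted, the smallest that 6 against 5 libraries allow). It was not called. This contrast shares its WT males with the male Homo contrast, in which Klf2 was chosen, so it is not independent of the choice. Without the library labelled Het-M-0199 the difference was -0.89, and among late mouse numbers alone it was -0.99.

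For male Homo against WT, the contrast used in the choice of Klf2, the log2 fold change was -1.69 (SE 0.34), or 0.309 of the WT level on this scale. The value was -1.24 among late mouse numbers alone (2 Homo and 5 WT males) and -1.36 without library Homo-M-0093, which had both the least Klf2 and the lowest relative depth, 0.669. A pseudocount of 1 in place of 0.1 gave -1.07, since it takes up a larger part of a low level.

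In female Homo against WT, Klf2 differed by -0.38 on the log2 scale (SE 0.37, limma adjusted p = 1.0). In female Het against WT it was -0.02 (SE 0.37, limma adjusted p = 1.0), and -0.12 once the library labelled Het-F-0206 was left out. The change of Het males minus that of Het females was -0.93 (SE 0.49, limma adjusted p = 0.860), so a sex difference was not shown. That value also contains the WT males of the contrast in which Klf2 was chosen. For Homo the corresponding value was -1.31 (SE 0.50), given without a test because it contains the male Homo libraries.

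**Figure D3:**
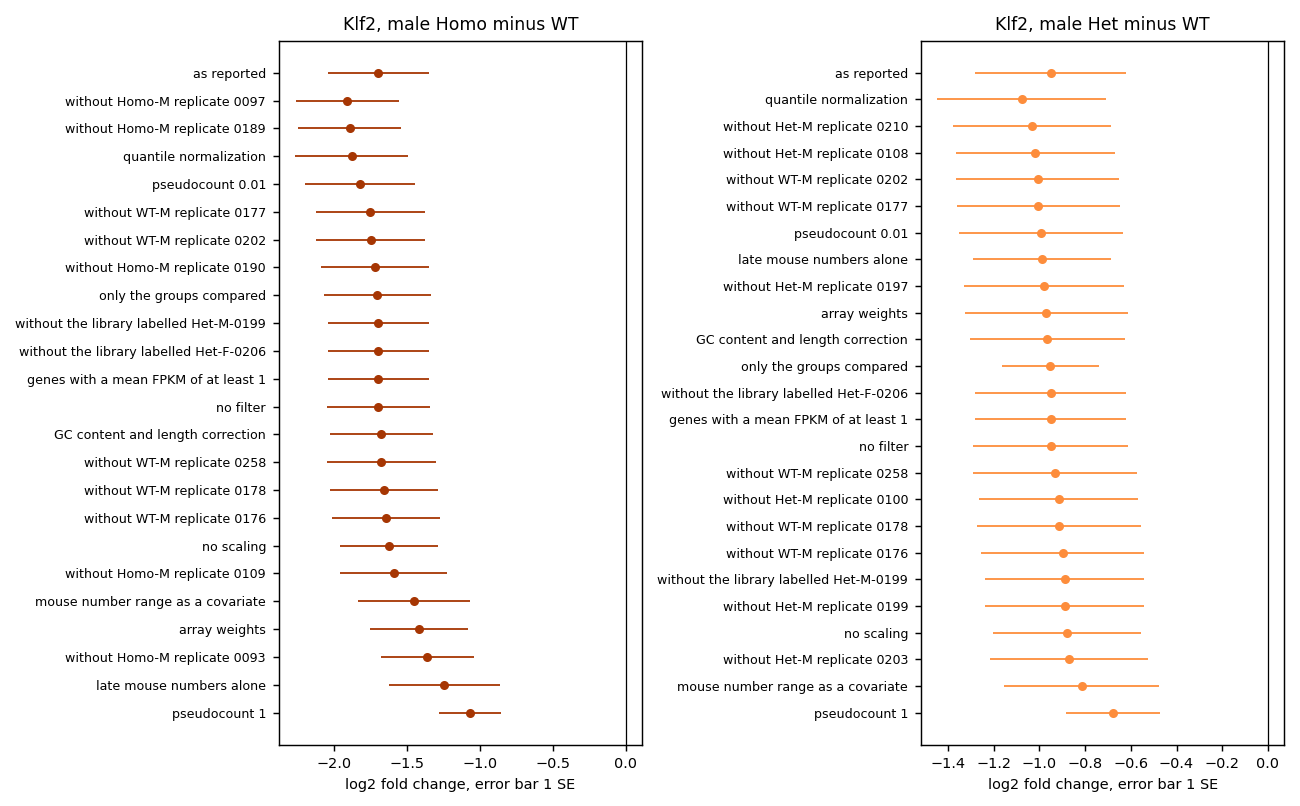
Log2 fold change of Klf2 with 1 SE under each alternative setting, for male Homo against WT (left) and male Het against WT (right), with the reported value at the top. All values were below 0, from -1.91 to -1.07 for Homo and from -1.08 to -0.68 for Het.

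Transcripts listed as markers of other cells also differed between these libraries. The 10 neutrophil markers, led by S100a8 and S100a9, summed to 44.1 to 349.4 FPKM in WT males, 0.118 to 190.04 in Het males and 0.113 to 80.9 in Homo males. Of the 8 that could be tested, 6 were negative in male Het, with a median of -2.76, and 4 had an unadjusted p below 0.05. Over the whole table, 2391 of the 16897 genes tested were below that p in male Het. In male Homo, described without a test, all 8 neutrophil markers were negative, with a median of -4.58. The median sum was 72.7 FPKM in WT males, 12.3 in Het males and 0.688 in Homo males. The 10 endothelial markers summed to 11.5 to 17.5 FPKM in WT males, 7.94 to 13.5 in Het males and 9.75 to 13.4 in Homo males, most of it Pecam1. Of the 4 that could be tested, 3 were negative in male Het, with a median of -0.40, and 2 had an unadjusted p below 0.05. In male Homo 2 of these 4 were negative, with a median of -0.15. The other 6 endothelial markers were below the lowest mean tested, among them Cldn5, Tie1 and Tek with means of 0.0156, 0.00415 and 0.00089 FPKM. Of the lymphocyte markers, Cd3e and Cd3g were listed at 0 in every library, and Cd79b made up most of a sum of 27.5 to 38.5 FPKM in WT males, 24.5 to 33.1 in Het males and 16.6 to 31.3 in Homo males. Of the 10 lymphocyte markers, 2 could be tested. The endothelial and lymphocyte sums rest mostly on Pecam1 and Cd79b, and whether these transcripts came from such cells was not tested. The part of neutrophil, endothelial and lymphocyte RNA in the Klf2 values was not tested. In bulk samples fewer cells of a type and less RNA per cell cannot be told apart.

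Klf2 also has an extreme base composition: the GC content of its longest transcript is 61.6%, higher than that of 98.1% of the genes tested, as compared with 42.4% to 55.5% for the other members. In male Homo against WT the median log2 fold change was 0.23 over genes with at most 40% GC and -0.03 over genes above 60%. With GC content and length corrected, Klf2 was at -1.67 in male Homo and -0.96 in male Het. That correction was chosen after seeing the data, and the part of base composition in the Klf2 values was not tested.

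Klf4, the closest relative of Klf2, ran from 0.0283 to 0.568 FPKM over the 30 libraries and all groups overlapped. Its group means lay between 0.203 ± 0.122 FPKM in WT females (SD, n = 4) and 0.310 ± 0.223 in WT males (n = 5). The log2 fold changes were 0.34 in female Het, 0.32 in female Homo and -0.36 in male Het, with SE of 0.44 to 0.49 and limma adjusted p of 0.712 to 1.0. In male Homo it was -0.19 (SE 0.46). The SE was larger than the difference in each of these contrasts.

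Klf3, the CtBP-binding repressor at chr5:64803388-64832901, was the steadiest member and showed the cleanest separation in females. The female WT libraries had 91.2, 86.9, 89.5 and 88.2 FPKM. Those of female Het had 97.8, 97.1, 101.7, 100.2 and 101.2 FPKM, and those of female Homo had 93.3, 101.3, 98.4, 99.4 and 99.2 FPKM. All 10 Cre-positive females were above all 4 WT females.

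The size of the Klf3 difference was small. It came to 0.16 on the log2 scale in female Het (SE 0.07, limma adjusted p = 1.0, exact permutation p = 0.0159, two-sided) and 0.14 in female Homo (SE 0.07, limma adjusted p = 1.0, exact permutation p = 0.0159). That permutation p is the smallest that 5 against 4 libraries allow, and both contrasts use the same WT females. Across the table, 0.586% of the genes tested had both groups above every WT female library. When the library labelled Het-F-0206 was left out, Klf3 in female Het was at 0.17.

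In males Klf3 was 90.7 ± 3.9 FPKM in WT (SD, n = 5), 102.3 ± 8.4 in Het (n = 6) and 105.1 ± 9.3 in Homo (n = 5). Before scaling, Het males, at 91.6 to 116.6 FPKM, overlapped the WT males at 86.2 to 95.0 FPKM, and Homo males, at 95.9 to 118.4, did not. After scaling, the difference was 0.10 in male Het (SE 0.07, limma adjusted p = 0.501) and 0.13 in male Homo (SE 0.07). Without scaling these were 0.17 and 0.21. Klf3 thus had positive values in all 4 contrasts with WT, each below 1.5-fold. It shares 404 of its 11243 exonic bases with Gm20033 on the opposite strand, and Gm20033 itself averaged 1.43 to 2.79 FPKM by group.

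Klf6, an activator induced by many injury and growth signals, was at chr13:5861482-5870394 and varied little in WT males. Those 5 libraries had 45.7, 44.8, 44.5, 45.0 and 42.5 FPKM. The male Het libraries ran from 37.2 through a median of 41.1 to 45.5 FPKM and the male Homo libraries had 38.7, 33.2, 37.8, 41.1 and 40.3 FPKM. Before scaling, Homo males were below all WT males, whereas Het males overlapped them.

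For Klf6 the log2 fold change was -0.19 in male Het (SE 0.09, limma adjusted p = 0.344, exact permutation p = 0.0476, two-sided). In male Homo it was -0.31 (SE 0.09), and -0.13 among late mouse numbers alone. Female means were 41.3 ± 3.2 FPKM in WT (SD, n = 4), 42.2 ± 3.3 in Het and 39.7 ± 3.6 in Homo (n = 5 each), and the female differences were 0.02 and -0.06 with SE of 0.10 (limma adjusted p = 1.0 for both).

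Klf7, the paralog of Klf6 that is best known for axon growth, was lowest in WT females. The female WT libraries had 11.9, 9.61, 9.49 and 10.8 FPKM. Those of female Homo had 12.9, 12.6, 15.7, 13.5 and 13.4 FPKM and did not overlap WT. Those of female Het had 11.1, 13.5, 13.9, 15.0 and 14.2 FPKM, with 1 library inside the WT range. WT males averaged 14.4 ± 2.3 FPKM (SD, n = 5), whereas the WT females, at 10.5 ± 1.1 (n = 4), had the lowest mean of the 6 groups.

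Klf7 was 0.38 higher on the log2 scale in female Homo (SE 0.14, limma adjusted p = 1.0, exact permutation p = 0.0159, two-sided) and 0.36 higher in female Het (SE 0.14, limma adjusted p = 0.824, exact permutation p = 0.0317). Neither was called. Among late mouse numbers alone the values were 0.43 and 0.42. In males the values had the opposite sign, -0.19 in Het (SE 0.12, limma adjusted p = 0.473) and -0.13 in Homo (SE 0.13), and the male groups overlapped. The change of Het males minus that of Het females was -0.55 (SE 0.18), with an unadjusted limma p of 0.00508 and an adjusted p of 0.860. Klf7 lies at chr1:64029447-64122282 on the minus strand and shares 3196 of its 8131 exonic bases with Gm26649 on the other strand. The library kit did not mark strand, so reads from that stretch could belong to either gene, and Gm26649 was listed at 0 in every library.

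Klf9, the glucocorticoid-induced member, was low in every library, between 0.104 and 0.718 FPKM. Group means fell between 0.315 ± 0.151 FPKM in Homo males (SD, n = 5) and 0.503 ± 0.211 in WT males (n = 5), with overlap throughout. The differences were -0.45 in male Het (SE 0.39, limma adjusted p = 0.596), -0.59 in male Homo (SE 0.41), and 0.16 and 0.15 in female Het and Homo (SE 0.43, limma adjusted p = 1.0).

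Klf10, the TGF-beta-induced member, had group means of 5.00 FPKM in Het males to 5.80 FPKM in Het females. Its libraries ran from 3.32 to 7.79 FPKM, the highest being the early library WT-F-0122. No contrast with WT exceeded 0.19 in size on the log2 scale, with SE of 0.20 to 0.22 and limma adjusted p of 0.661 to 1.0 in the tested contrasts.

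Klf13, a repressor and activator of immune genes at chr7:63886351-63938915, was spread widely in males. WT males had 17.1, 16.1, 12.8, 8.30 and 17.1 FPKM, and male Homo libraries had 7.58, 10.2, 9.45, 13.9 and 10.9 FPKM. Male Het libraries ran from 8.97 through a median of 10.4 to 14.2 FPKM. All 3 male groups overlapped, and the widest spread was that of the WT, in which library WT-M-0202 had 8.30 FPKM.

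In male Het the Klf13 difference was -0.39 (SE 0.19, limma adjusted p = 0.342, exact permutation p = 0.121, two-sided), and -0.48 without the library labelled Het-M-0199. In male Homo it was -0.51 (SE 0.19). The values moved with the mouse numbers: early Cre-positive males had 7.58 to 10.2 FPKM and late ones 10.0 to 14.2, and among late numbers alone the differences were -0.21 in Het and -0.16 in Homo. The part of the number range in the Klf13 values cannot be told apart from that of genotype where early males are used, since no WT male was early. In females the Klf13 groups overlapped, with means of 11.98 to 13.2 FPKM and differences of 0.10 in Het and -0.04 in Homo (SE 0.21, limma adjusted p = 1.0).

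Counted over the family, 0 of the 8 members were called in female Homo against WT, where limma called 0.071% of the genes tested. The count was also 0 in female Het against WT (0.13% of genes called) and in male Het against WT (0.154%), and in female Homo against Het (0.0118%). At an unadjusted limma p below 0.05 the members were 1 in female Homo (Klf7), 2 in female Het (Klf3 and Klf7) and 3 in male Het (Klf2, Klf6 and Klf13). Of the 16897 genes tested, 589, 668 and 2391 were below it in the same contrasts. In male Homo against WT limma called 1.81% of the genes tested. Calls of the members are not counted there, because the choice of Klf2 used that contrast.

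Overlap was counted in FPKM before scaling. Where groups did not overlap, the members were 2 of 8 in female Homo, both higher (1.65% of genes tested in that direction). They were 1 of 8 in female Het, higher (1.58%), and 1 of 8 in male Het, lower (0.326%). In male Homo 1 was higher (2.56%) and 2 were lower (1.37%). The scaling factors were 1.10 for Homo-M-0109, 0.959 for WT-M-0178, 0.972 for Homo-M-0189 and 1.01 for WT-M-0258. The separations of Klf3 and Klf6 in male Homo therefore need not hold after scaling. The median log2 fold change of the 8 members was 0.05 in female Homo, 0.13 in female Het, -0.27 in male Het and -0.25 in male Homo, while the median of all genes tested was between 0.00 and 0.03. In males 7 of 8 members had negative values in each contrast, with Klf3 as the exception. The male Homo count depended on the setting, since with array weights Klf4 was at 0.19 and Klf10 at 0.01. Klf4 in male Homo was also above 0 when number range entered the fit (0.06), without Homo-M-0093 (0.09) and without WT-M-0258 (0.04), and Klf10 was at 0.0038 without Homo-M-0109. In females 4 of 8 were negative in Homo and 1 of 8 in Het. The 2 contrasts of each sex share their WT libraries.

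**Figure D4:**
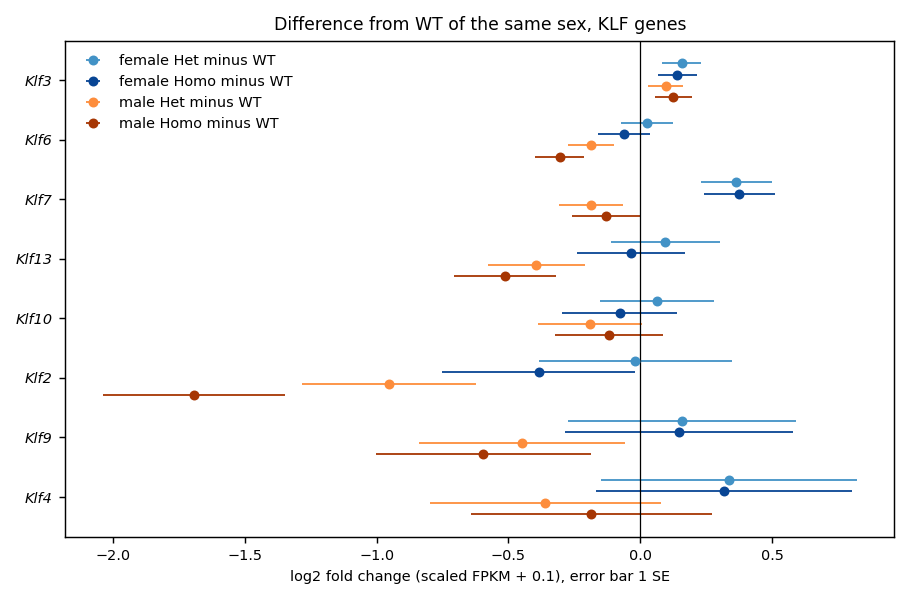
Log2 fold change with 1 SE for the 8 KLF genes in Het and Homo against WT of the same sex, genes in falling order of level. Klf2 in males lies farthest from 0, at -0.95 in Het and -1.69 in Homo, Klf3 is positive in all 4 contrasts, and the error bars widen toward the low genes Klf9 and Klf4.

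Leaving out the library labelled Het-F-0206 turned the sign of Klf6 alone in female Het. Without it Klf2 was at -0.12, Klf3 at 0.17, Klf4 at 0.29, Klf6 at -0.01, Klf7 at 0.37, Klf9 at 0.29, Klf10 at 0.03 and Klf13 at 0.15. Klf3 still did not overlap WT (exact permutation p = 0.0286, two-sided, the smallest that 4 against 4 libraries allow), and Klf7 had an exact permutation p of 0.0571. The median of the 8 members was 0.16.

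Without the library labelled Het-M-0199, the male Het values were 0.11 for Klf3, -0.51 for Klf4, -0.20 for Klf6, -0.26 for Klf7, -0.48 for Klf9 and -0.26 for Klf10, with those of Klf2 and Klf13 as given above and a median of -0.37. Klf2 did not overlap WT there either (exact permutation p = 0.00794, two-sided, the smallest that 5 against 5 libraries allow). As above, the WT males are those of the contrast in which Klf2 was chosen, so this is not independent of the choice. The share of all genes that lay lower without Het-M-0199 is not given here. In FPKM before scaling, Klf3 then lay above every WT male as well (exact permutation p = 0.00794), as 0.793% of the genes tested did. The scaling factors were 1.15 for Het-M-0100 and 0.959 for WT-M-0178, so this separation need not hold after scaling. On scaled values Klf3 had a limma adjusted p of 0.390. Klf6 had an exact permutation p of 0.0873. In neither the fit without Het-F-0206 nor that without Het-M-0199 did limma call a member, and the smallest adjusted p was 0.218. At an unadjusted p below 0.05 there were 2 members in female Het, as before, and 4 in male Het, where Klf7 was added. With all libraries in the fit, 668 and 2391 of the 16897 genes tested were below it in these contrasts. The counts over all genes without these libraries are not given here. The sex difference of Klf7 in Het was -0.56 without Het-F-0206 and -0.62 without Het-M-0199, and that of Klf2 was -0.83 and -0.87, with limma adjusted p of 0.837 and 0.740 for both genes.

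Het and Homo can be compared with each other where Cre is present in both. In females, every member overlapped between the groups (0.491% of genes tested did not), and the differences of Homo minus Het ran from -0.37 (Klf2) to 0.01 (Klf7), with a smallest limma adjusted p of 1.0. In males, given without a test, they ran from -0.74 (Klf2) to 0.17 (Klf4), and every member overlapped (0.183% of genes tested did not). For Klf2 the value was -0.27 in females without Het-F-0206 and -0.80 in males without Het-M-0199.

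Genes that act upstream of KLF genes gave no DEG in the tested contrasts. The list held 10 genes, among them the kinase ERK5 (Mapk7), its activator Map2k5, 3 Mef2 genes, the glucocorticoid receptor Nr3c1 and both TGF-beta receptor subunits. All 10 were tested, and limma called 0 in female Homo, female Het or male Het against WT. At an unadjusted limma p below 0.05 there was 1, Mapk7 in male Het, at 0.22 (SE 0.10). The most abundant were Tgfbr1, at 518.8 FPKM with a male Het difference of -0.20 (SE 0.16, limma adjusted p = 0.566), and Tgfbr2, at 199.2 FPKM with -0.16 (SE 0.18, limma adjusted p = 0.691). The list median was -0.16 in male Het, 0.03 in female Het and -0.01 in female Homo.

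Cofactors and ligases of KLF proteins gave the same picture of no calls. Of 10 cofactors, including the CtBP and Sin3 genes, limma called 0 in the 3 tested contrasts with WT, and 3 had an unadjusted p below 0.05, all in male Het and all negative (Ctbp1, Hdac2 and Crebbp). In male Het, 2391 of the 16897 genes tested were below that p. Hdac1, a histone deacetylase, averaged 54.3 FPKM, and Ctbp1, the partner of Klf3, averaged 53.7 FPKM with a male Het difference of -0.18 (SE 0.08, limma adjusted p = 0.346). Of 4 ubiquitin ligases that act on KLF proteins limma called 0, and 0 had an unadjusted p below 0.05, with Smurf1 the highest at 22.1 FPKM and Btrc next at 5.18 FPKM.

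Among 10 genes known as KLF targets in other cells, 6 could be tested and limma called 0 in the 3 tested contrasts with WT. At an unadjusted p below 0.05 they were Cdkn1a, a cell cycle inhibitor, in female Homo (0.84, SE 0.23) and female Het (0.92, SE 0.23), and Il6 in male Het (0.68, SE 0.22). S1pr1, a receptor for lymphocyte egress that depends on Klf2 in T cells, averaged 42.2 FPKM and differed by 0.04 in male Het (SE 0.15, limma adjusted p = 0.915) and by -0.04 in male Homo (SE 0.16). Tgfb1 averaged 115.8 FPKM and differed by -0.17 in male Het (SE 0.13, limma adjusted p = 0.521) and -0.24 in male Homo (SE 0.13). Over the 6 genes, the male Homo differences ran from -0.24 to 0.90, with a median of 0.13, and 3 were negative. Whether these targets follow Klf2 was not tested.

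Of 8 glucocorticoid response genes, 6 could be tested. None was called in the 3 tested contrasts with WT by limma, and the list median was 0.06 in female Homo, 0.14 in female Het and -0.38 in male Het, where all 6 were negative and 3 had an unadjusted p below 0.05 (Ddit4, Tsc22d3 and Per1), as had 2391 of the 16897 genes tested. In male Homo, described without a test, 4 of the 6 were negative, with a median of -0.29 and values from -2.48 to 0.14. Sgk1, a kinase induced by the hormone, averaged 263.7 FPKM and differed by -0.02 in male Het (SE 0.13, limma adjusted p = 0.964). Tsc22d3, which encodes the leucine zipper protein GILZ, averaged 52.3 FPKM and differed by -1.08 in male Het (SE 0.28, limma adjusted p = 0.0983) and by -1.38 in male Homo (SE 0.29). Within male Het the value farthest from 0 was that of Ddit4, a stress-induced inhibitor of mTOR signalling, at -2.09 (SE 0.49, limma adjusted p = 0.0689).

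Because KLF genes are also immediate early genes that respond to tissue dissociation, 16 such genes were followed, of which 15 could be tested. They summed to 487.9 to 534.4 FPKM in WT females, 502.1 to 536.8 in Het females, 507.9 to 536.7 in Homo females, 498.1 to 554.9 in WT males, 464.9 to 583.7 in Het males and 479.5 to 545.5 in Homo males. Limma called 0 in the 3 tested contrasts with WT, and 4 had an unadjusted p below 0.05, all in male Het: Egr2 and Ier3 with positive values, Rhob and Btg2 with negative ones. Over the whole table, 2391 of the 16897 genes tested were below that p in male Het. Rhob, at 146.3 FPKM, differed by -0.35 in male Het (SE 0.15, limma adjusted p = 0.306) and Btg2, at 105.8 FPKM, by -0.23 (SE 0.08, limma adjusted p = 0.235). The summed level overlapped in all groups.

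Over the lists of other KLF, SP, upstream, cofactor, ligase, target, glucocorticoid response and immediate early genes, limma called 0 genes in female Het without the library labelled Het-F-0206, with Cdkn1a again the 1 gene at an unadjusted p below 0.05. Without the library labelled Het-M-0199 it called 1 in male Het: Egr2, a zinc finger factor of the immediate early list, at 1.26 (SE 0.25, limma adjusted p = 0.0246), as compared with a limma adjusted p of 0.0502 with that library. Klf12 and Jund were added there to the genes at an unadjusted p below 0.05, and none was lost. The medians in male Het and female Het were then -0.15 and 0.10 for the upstream genes and -0.43 and 0.13 for the glucocorticoid response genes.

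The genes most like each member were sought among 11622 genes with a mean of at least 1 FPKM, as Pearson correlations over the 30 libraries after the group means were taken off. These are descriptions: the points share libraries, depth and base composition. Klf2 was most like Fkbp4, an Hsp90 co-chaperone, at 0.78, Nfil3, a leucine zipper repressor, at 0.75 and Cpox, an enzyme of heme synthesis, at 0.74. Klf3 was most like Lrrc61 (0.83), Inpp5b (0.80) and Adgra3 (0.79), and Klf6 was most like Farsb (0.83), Ctsc (0.81) and Praf2 (0.80). Klf13 had the highest values of the members, with Tmem115 (0.86), Eif4b (0.86) and Mindy2 (0.85), and Klf10 was most like Vrk1 (0.78), Gpr157 (0.77) and Parn (0.77). The low members had weaker partners: Klf4 with Tmem81 (0.69), Naa25 (0.68) and Apex2 (0.67), Klf9 with Camk2a (0.65), Cwc25 (0.64) and Rfxap (0.64). Klf7 stood with them, with Isyna1 and Snrpa (0.64 each) and Mospd3 (0.63).

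Members were little alike among themselves. Over the 28 pairs the correlation ran from -0.14 (Klf2 and Klf7) to 0.50 (Klf2 and Klf4), with a median of 0.18. No member was among the 3 genes most like another.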

How the data were processed

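RNA of FACS-sorted microglia was sequenced by the authors after SMARTer and Nextera XT library preparation, as the methods of the study describe, whereas the labels' protocol is one for microglia in culture and adds a TruSeq kit. The methods of the study were followed here. The authors aligned reads to mm10 with OSA4, estimated abundance with RSEM, removed 6 libraries by quality, and deposited FPKM without a logarithm. Their DESeq2 fit needs counts and was not repeated. Of the columns of the table, 6 match no listed sample and were not used. Whether these are the libraries removed is not given in the sources used here.

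FPKM were scaled by a median of ratios, taken over genes that averaged at least 1 FPKM. A pseudocount of 0.1 was added before log2, and genes with a mean of at least 0.1 were tested with limma 3.58.1 (R 4.3.3) in 1 fit of the 6 groups with an intensity trend. Exact permutation tests (scipy 1.17.1, Python 3.11.15) used mean FPKM before scaling, as did overlaps between groups. The tests covered all 8 members in the 4 tested contrasts, 32 in all. Those of the Het groups were repeated without the libraries labelled Het-F-0206 and Het-M-0199. The limma adjusted p covers all genes tested. The fit was tested on simulated data. The deposited FPKM hold no read totals, so absolute depth is unknown and no counting error is given. The steps between low values gave each library's depth as a ratio to the median library. Replicates are mice with their own numbers.

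The members and gene lists were chosen with earlier results of these data known. Named were all members, of each list the genes at a mean of at least 1 FPKM called in a contrast not used in the choice, otherwise the 2 most abundant, and the 3 genes most like each member. Other genes named beside a result (cell type markers, genes overlapping a member and list genes with an unadjusted p below 0.05) were chosen after their values were seen. One microglial marker is not reported here and was left out of the sum of its list. Sequences and positions came from GENCODE M21 and RefSeq on GRCm38. The alternatives changed the pseudocount, the filter and the scaling, or used array weights, mouse number range, the groups compared alone, leaving out libraries and, chosen after seeing the data, a correction for GC content and length.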

Additional observations from a re-analysis of the deposited data

Results flagged for a closer look

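Of the 48 sets of values (8 KLF genes in 6 groups), 1 held a library far from the rest of its group. Klf4 was 0.0663 FPKM in the library Het-F-0220, as compared with 0.313 to 0.373 FPKM in the other 4. Chance alone gives about 1 such library in 20 groups. Klf2 was also lowest of its group in that library, at 1.09 FPKM, and its sum of neutrophil markers was 0.0406 FPKM as compared with 12.4 to 88.4 in the other 4.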

How the results depend on the processing

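The count of members called stayed at 0 in female Homo, female Het and male Het under each of the 13 alternatives and with each library left out. Klf2 in male Homo kept its sign, from -1.88 (quantile normalization) to -1.07 (pseudocount 1), and from -1.91 to -1.36 with a library left out. Values near 0 changed sign. In male Homo, Klf4 was 0.19 with array weights, 0.055 with the number range as a covariate and -0.55 to 0.092 with a library left out, and Klf10 was 0.011 with array weights and -0.20 to 0.0038 with a library left out. In females they were, for Klf2 in Het, 0.0053 at a pseudocount of 1 and -0.25 to 0.21 with a library left out; for Klf6 in Het, -0.017 with the number range as a covariate, -0.014 without Het-F-0206, -0.0011 with GC content and length corrected and -0.016 to 0.064 with a library left out; for Klf10 in Homo, 0.074 among late numbers and -0.25 to 0.076 with a library left out; for Klf13 in Het, -0.030 with the covariate. With a library left out the ranges were -0.063 to 0.44 for Klf9 in Homo, -0.053 to 0.38 for Klf9 in Het, -0.11 to 0.22 for Klf10 in Het and -0.12 to 0.045 for Klf13 in Homo. The cause was not tested. Over the whole table, calls ran from 9 (late numbers alone) to 479 (array weights) in male Homo as compared with 306, from 4 (only the groups compared) to 31 in male Het as compared with 26, from 9 to 63 in female Het as compared with 22, and from 10 to 36 in female Homo as compared with 12. Leaving out 1 library gave 77 (Homo-M-0093) to 822 (Homo-M-0189), 12 to 57, 9 to 26 and 7 to 11 calls. No paired analysis was possible because each mouse number occurs in 1 library only. Since absolute depth is unknown, how far it limits the low members Klf4 and Klf9 was not tested.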

Other observations

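Among the marker lists of 11 cell types, limma called 1 gene in the 3 tested contrasts of the KLF genes, chosen here after its values were seen: Prlr, the prolactin receptor of the choroid plexus, was listed at 0 in all 6 male Het libraries as compared with 0.828 ± 0.668 FPKM in WT males (SD, n = 5), with a limma adjusted p of 0.0489. Without the library labelled Het-M-0199 the adjusted p was 0.0710. All 6 choroid plexus markers were negative in male Het against WT, with a median log2 fold change of -2.64, and 5 had an unadjusted p below 0.05. Their sum ran from 0.166 to 271.2 FPKM in WT males and from 1.30 to 19.3 in Het males. The 8 border macrophage markers were all negative in the same contrast, with a median of -1.05 as compared with 0.01 over all genes tested, and 6 of them had an unadjusted p below 0.05. The 7 astrocyte markers were all positive in the same contrast, with a median of 0.75, and 3 had an unadjusted p below 0.05. Of the 6 oligodendrocyte markers that could be tested, 5 were positive, with a median of 0.87, and 5 had an unadjusted p below 0.05. Over the whole table, 2391 of the 16897 genes tested were below that p in male Het. Without the library labelled Het-M-0199 the medians were -2.53 for choroid plexus, -0.97 for border macrophages, 0.999 for astrocytes and 0.84 for oligodendrocytes, and 5, 4, 3 and 3 markers had an unadjusted p below 0.05. KLF values were not compared with these lists.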
